A study of Mus musculus with 14 samples.

Results

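The 4 CTCF peak lists of day 4 embryoid bodies (EBs), 2 from cells with wild-type CTCF (D4_CTCF_WT) and 2 from cells with the CTCF lysine 20 to arginine mutation (D4_CTCF_K20R), were merged into 68863 sites, with peaks joined where they overlapped by at least 1 bp. A site was called lost if both WT libraries and no K20R library had a peak there, gained in the reverse case, and kept if all 4 libraries had a peak. Of the 68863 sites, 10413 were lost, 212 were gained and 38422 were kept, and the other 19816 had other combinations of calls. The whole series holds 14 samples, and its 8 CTCF lists of stem cells (day 0) and EBs merged into 86652 sites.

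The study asked what acetylation of CTCF at lysine 20 (K20) does for binding and for differentiation into mesoderm. Both genotypes were E14Tg2A mouse embryonic stem cells (mESCs) grown on feeder fibroblasts, and the K20R mutation had been placed in the endogenous gene with CRISPR/Cas9. Both were differentiated in the same way, as hanging drops in serum without leukaemia inhibitory factor, and collected at day 4. The number of clones per genotype was not given, so an effect of the mutation and a difference between clones cannot be told apart.

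CTCF is a zinc finger protein that binds a long, GC-rich DNA motif, halts the loop-extruding cohesin complex and thereby sets the borders of chromatin domains. It also insulates promoters from enhancers and marks the active or silent copy of several imprinted genes. Lysine 20 lies in the N-terminal part of the protein, outside the zinc fingers that contact DNA. The enzymes that the study names for it are the acetyltransferase CBP and the deacetylase HDAC6. A CpG inside the CTCF motif can be methylated, which is known to weaken binding at some sites.

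The sites at which lost and gained binding was strongest are shown with their sequence, because a lost and a gained site among them were nearly the same element. Each line gives the nearest annotated start site and 79 bases of the RefSeq GRCm38 (mm10) genome, read 5′ to 3′ on the strand of the motif. Capitals mark the 19-base match to the CTCF motif matrix, whose consensus was NGGCCACCAGGGGGCGCNN, and both strands were searched. The first 5 are the strongest lost sites with a strict match outside exons, and the next 5 are the corresponding gained sites.
Ran (chr5:129025130-129025208, minus strand): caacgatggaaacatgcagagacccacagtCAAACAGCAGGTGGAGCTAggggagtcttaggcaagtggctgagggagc
Krt7 (chr15:101421072-101421150, minus strand): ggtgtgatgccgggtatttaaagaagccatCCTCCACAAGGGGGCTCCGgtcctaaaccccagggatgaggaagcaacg
AC148016.2 (chr19:21734356-21734434, plus strand): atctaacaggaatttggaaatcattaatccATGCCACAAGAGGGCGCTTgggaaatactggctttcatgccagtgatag
Agmo (chr12:37183847-37183925, minus strand): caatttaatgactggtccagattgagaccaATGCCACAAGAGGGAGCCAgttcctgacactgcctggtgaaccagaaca
Gatad2b (chr3:90343003-90343081, minus strand): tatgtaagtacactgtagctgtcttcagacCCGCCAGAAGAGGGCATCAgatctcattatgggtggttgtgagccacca
Cav1 (chr6:17315377-17315455, plus strand): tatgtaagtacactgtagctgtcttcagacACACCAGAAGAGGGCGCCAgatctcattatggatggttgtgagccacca
Zfp988 (chr4:147340382-147340460, minus strand): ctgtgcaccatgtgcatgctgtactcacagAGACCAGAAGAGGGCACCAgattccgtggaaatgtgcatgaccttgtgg
Gm24772 (chrX:167921827-167921905, minus strand): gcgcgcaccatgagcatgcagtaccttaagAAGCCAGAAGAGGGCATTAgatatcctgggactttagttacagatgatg
Grin2a (chr16:9966707-9966785, plus strand): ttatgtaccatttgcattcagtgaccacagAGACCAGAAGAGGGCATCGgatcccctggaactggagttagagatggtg
Gm6897 (chrX:74863762-74863840, minus strand): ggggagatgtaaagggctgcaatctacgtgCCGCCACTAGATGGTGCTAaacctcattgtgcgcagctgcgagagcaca
The gained site in Cav1 and the lost site 1.38 kb from the start of Gatad2b were equal at 74 of 79 bases (93.7%), including 59 of the 60 bases outside the motif. The median identity over all 120 pairs of printed sequences was 34.2%. Within the motif, with positions counted from 1 at the 5′ end of the match, the change from the Gatad2b to the Cav1 element was C1A, G3A, A16G and T17C. The gained sites near Gm24772 and in Grin2a shared 69.6% of bases, and those near Zfp988 and in Grin2a shared 68.4%. The best match lay in sequence masked as a repeat at all 5 gained sites and at 1 of the 5 lost sites, Gatad2b.

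Kept sites with large differences in fold enrichment between genotypes are shown in the same way, since they differ in a base pair that the classes as a whole also differed in. The first 3 were lower in K20R and the last 3 were higher. They are the strict matches outside exons of largest difference, except that Apc, which ranks before the third, is not shown.
Gm14548 (chr7:3903874-3903952, minus strand): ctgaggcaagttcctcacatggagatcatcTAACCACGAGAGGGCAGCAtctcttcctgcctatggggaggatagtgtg
Pxdn (chr12:29907198-29907276, plus strand): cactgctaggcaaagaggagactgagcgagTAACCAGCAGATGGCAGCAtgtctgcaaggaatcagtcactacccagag
Gm6931 (chr16:49529216-49529294, plus strand): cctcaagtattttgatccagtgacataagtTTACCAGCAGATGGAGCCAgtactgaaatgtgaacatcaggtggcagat
Actrt2 (chr4:154674730-154674808, minus strand): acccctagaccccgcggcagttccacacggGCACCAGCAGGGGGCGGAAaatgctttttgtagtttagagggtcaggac
Gm45856 (chr8:124775913-124775991, minus strand): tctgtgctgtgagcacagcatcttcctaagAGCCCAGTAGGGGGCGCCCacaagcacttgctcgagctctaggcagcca
Myo3b (chr2:70126965-70127043, plus strand): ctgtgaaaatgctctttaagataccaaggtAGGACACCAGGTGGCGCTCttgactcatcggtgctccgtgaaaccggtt
A CpG at positions 15 and 16 of the match was present at 3 of the 3 sites that were higher and at 0 of the 3 that were lower. It was present at 1 of the 5 lost sites (AC148016.2) and at 1 of the 5 gained sites (Cav1). With so few sites these counts only describe the sequences shown. Over all kept sites with a strict match, this CpG was present at 15.2% of the 269 that were lower (11.4 to 20.0, 95% Wilson interval) and at 52.1% of the 340 that were higher (46.8 to 57.3), against 43.0% of 24860 in all. These groups were not compared at like motif score. Lower and higher refer here to fold enrichment over a local background. Compared on reads at the summit, as described below, 325 of all 650 lower sites and 10 of all 446 higher sites passed the test.

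K20R lists were shorter than WT lists, although peaks had been called on equal numbers of reads. WT replicates 1 and 2 held 61088 and 61436 peaks, and K20R replicates 1 and 2 held 41360 and 47463 peaks. The mean of 2 libraries was 61262 ± 246 (SD) for WT and 44411.5 ± 4315.5 for K20R, which differ by -16850.5 peaks (two-sided exact permutation p = 0.333). The groups did not overlap, and no lower p can be had from 2 libraries against 2. Among the peaks that were called, K20R values were higher. The median fold enrichment over local background was 12.5 in both WT libraries, 14.8 in K20R replicate 1 and 18.8 in K20R replicate 2. The 99th percentile was 47.3 and 46.6 in WT and 56.4 and 104.0 in K20R, so K20R replicate 2 stood apart from the other 3 libraries at strong sites.

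Lost sites were weak sites. Their median fold enrichment was 6.56 in WT replicate 1 and 6.55 in WT replicate 2, against 18.8 and 18.9 at kept sites. In reads at the summit, solved from the deposited values, the medians were 11 and 12 reads at lost sites and 39 and 39 at kept sites. The highest value of a lost site in WT replicate 1 was 27.6, near Cyp4f39, and 95% of lost sites stayed under 11.9 in WT replicate 1 and 12 in WT replicate 2. Gained sites were as weak, with medians of 5.69 and 6.41 in K20R replicates 1 and 2, or 9 and 10 reads. Kept sites had medians of 16.2 in K20R replicate 1 and 25.2 in K20R replicate 2, below and above the WT values. Lost sites were 18.8% of the 55276 that both WT libraries called, and gained sites were 0.541% of the 39152 that both K20R libraries called.

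A peak of few reads was often missed by the replicate of the same genotype as well, so the share missed was set beside the reads at the summit. Of sites with 8 to 11 reads in WT replicate 1, WT replicate 2 missed 32%, K20R replicate 1 missed 85.3% and K20R replicate 2 missed 74.2%. At 16 to 23 reads the shares were 1.08%, 38.7% and 24.2%, and at 24 to 31 reads they were 0.0439%, 13.2% and 5.31%. From 48 reads on, WT replicate 2 missed 1 of 13714 sites, and the K20R libraries missed 4 and 2. In the reverse direction, sites with 8 to 11 reads in K20R replicate 1 were missed by WT replicates 1 and 2 at 9.83% and 10.2% and by K20R replicate 2 at 19.7%. Among sites of equal read number, K20R libraries missed more WT peaks than the other WT library did, whereas WT libraries missed fewer K20R peaks than the other K20R library did. Both shares were taken with lists of unequal length. When each list was limited to its 41360 peaks of lowest p-value, 2157 sites were lost and 1840 gained, and 14.6% of the 10413 lost sites remained lost.

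**Figure D1:**
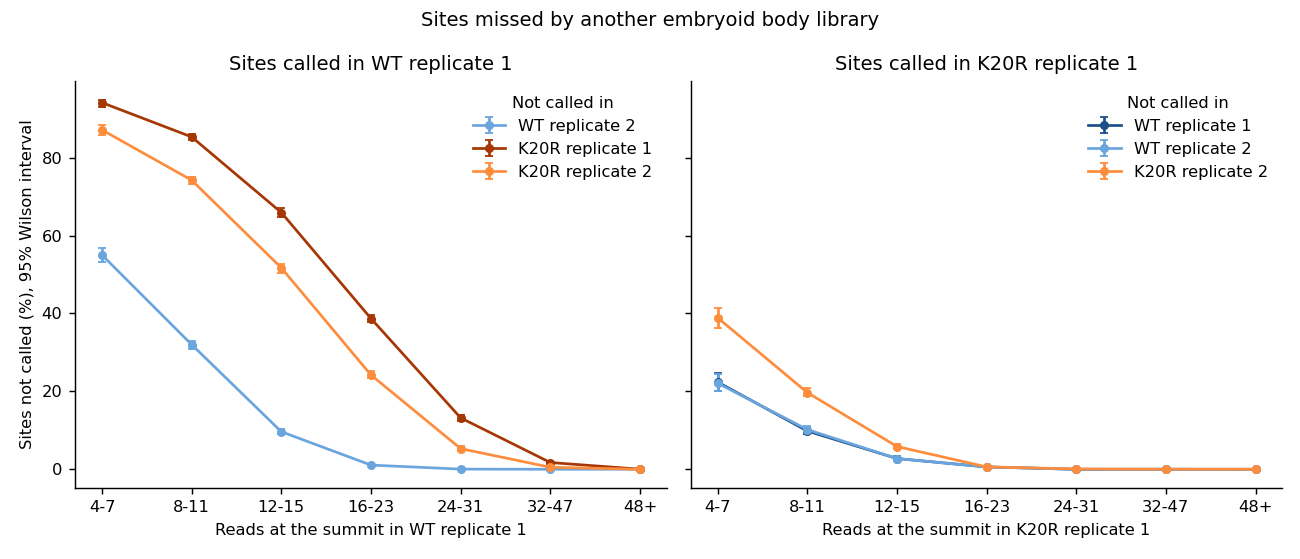
Share of sites called in 1 library that another library did not call, in percent with 95% Wilson intervals (y axis), by the number of reads at the summit in the first library (x axis), for sites of WT replicate 1 (left) and of K20R replicate 1 (right). At 16 to 23 reads in WT replicate 1, WT replicate 2 missed 1.08% and the K20R libraries 38.7% and 24.2%, while all lines on the right fall below 1% from 16 reads on.

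Ranked by the lower of its WT values, the strongest lost site lay at the start of Zfp219, a zinc finger gene, at chr14:52020394-52020827. Its fold enrichment was 25.9 and 26.4 in WT replicates 1 and 2, with 45 and 46 reads, and neither K20R library had a peak. It held no CTCF motif match, overlapped an H3K27ac peak in both genotypes, and lay in the segment of chromosome 14 described below. The next lay 4.88 kb from the start of Ran, the GTPase of nuclear transport, at chr5:129024968-129025344, with 22.0 and 24.2. At day 0 this site was called in both WT libraries (13.2 and 7.65) and in K20R replicate 1 (3.76).

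The other 13 of the 15 strongest lost sites had fold enrichments of 16.5 to 27.6 in WT replicate 1 and of 16.7 to 22.8 in WT replicate 2. Those in introns belonged to Krt7 (a keratin of simple epithelia), Cyp4f39 (a cytochrome P450) and Trpv6 (a calcium channel), and 1 lay in an exon of Mgll (monoglyceride lipase). Within 3 kb of a start site were the sites at Gatad2b, a subunit of the NuRD chromatin remodelling complex, and near Psrc1, a spindle protein. Sites between genes had Acyp2, Agmo (alkylglycerol monooxygenase), Oaz2 (a regulator of polyamine synthesis), Uaca, Cemip2 and Cdkn3 (a phosphatase of cell cycle kinases) among the nearest protein-coding genes. The site nearest to Cdkn3, like that of Zfp219, lay in the chromosome 14 segment. All 15 were still lost under each alternative that was run. None of these alternatives adds a peak to a list, so for sites this strong the outcome was largely set in advance.

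**Figure D2:**
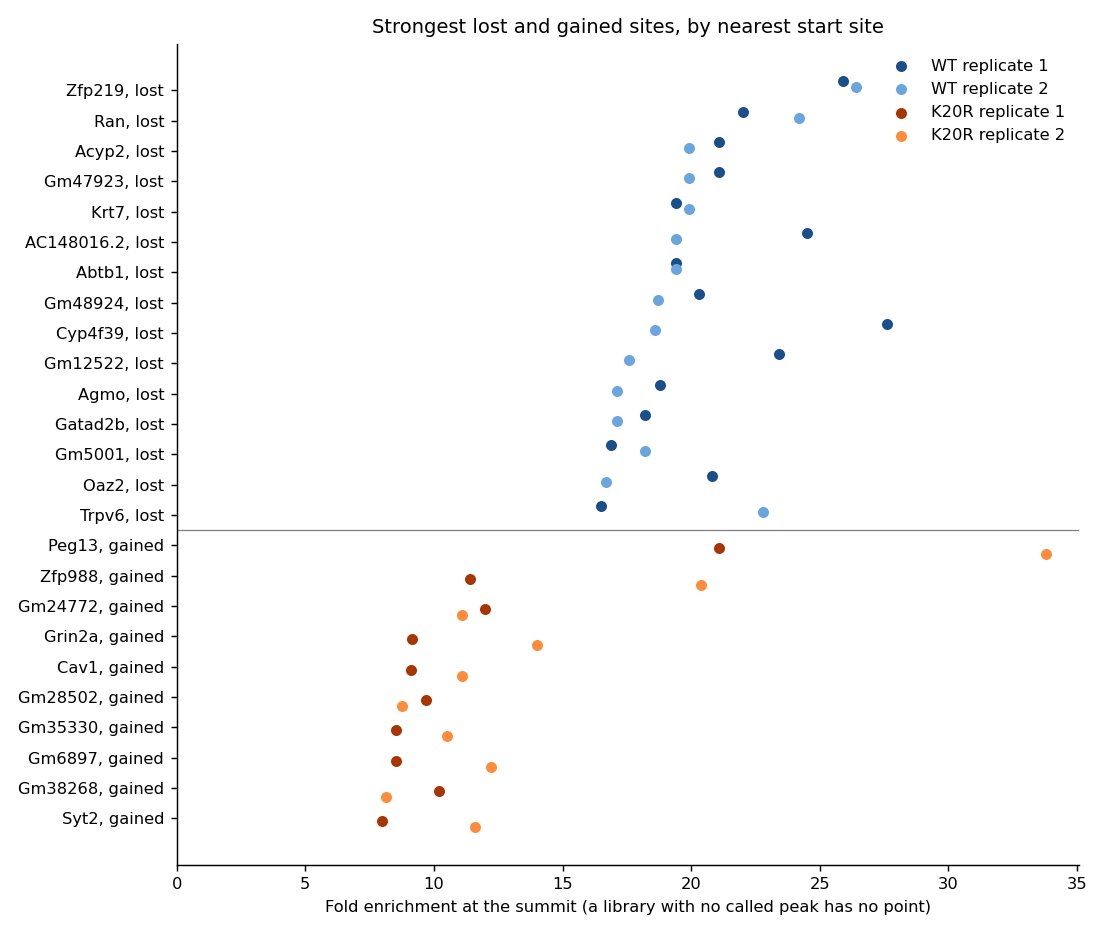
Fold enrichment at the summit (x axis) in each CTCF library of day 4 EBs for the 15 lost and 10 gained sites with the highest enrichment in the weaker of their 2 libraries (y axis, nearest start site). Lost sites lay between 16.5 and 27.6 in WT and had no K20R peak. Of the gained sites only Peg13, at 21.1 and 33.8 in K20R, had both libraries above 20.

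Lost sites within 1 kb of the start of a protein-coding gene were weaker than these, apart from Zfp219. Fold enrichments of the next 3 were 16 and 17.6 at the olfactory receptor gene Olfr15, 16 and 15.9 at Arfgap1 (an activator of the ARF GTPase of vesicle transport) and 14.8 and 16.5 at Htatip2 in WT replicates 1 and 2. The other 11 of the 15 strongest lay at Nuggc, Enc1, Slc5a1 (a sodium-glucose cotransporter), Clec2h, Gm10447, Fam229b, Trim35, Smagp, Slc35b2, LTO1 and Sept4, with 11.4 to 17.7 in WT replicate 1 and 11.4 to 16.2 in WT replicate 2. Nuggc and Trim35 lie in the chromosome 14 segment. Of the 15, 11 held a motif match, and all were still lost under each alternative, none of which adds a peak to a list. At day 0, the sites of Htatip2, Enc1 (an actin-binding protein of neurons) and Smagp were called in all 4 libraries.

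Whether a WT site was lost followed its strength, so other features were compared within quintiles of mean WT fold enrichment. The lost share of these WT sites was 60.6% (95% Wilson interval 59.6 to 61.5) in the weakest quintile, 28.4% in the next, 4.95% in the middle, 0.226% in the fourth and 0.00905% in the strongest, where 1 of 11055 sites was lost. Intervals on shares of sites reflect counting error alone and take each site as independent. With lists of equal length the share in the weakest quintile was 21.4%.

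The lost share differed with CpG content among sites of like strength, while the kept share did not in the weakest quintile. Sites in CpG-rich sequence (100 bp on each side of the summit with at least 50% GC and a CpG frequency of at least 0.6 of that expected) made up 2.55% of lost and 7.17% of kept sites. In the weakest quintile 29.9% of CpG-rich sites were lost (26.7 to 33.2), against 62.8% of the rest (61.9 to 63.7), and in the second quintile 6.82% against 29.7%. Kept in all 4 libraries were 16.4% and 16.8% in the weakest quintile and 55.2% and 47.7% in the second. Over all strengths, 13.1% of sites that both WT libraries shared with K20R replicate 2 alone were CpG-rich, against 1.25% of those shared with K20R replicate 1 alone. Within the weakest quintile this split was not made. A CpG at positions 15 and 16 of a strict motif match was present at 22.9% of lost and 43.0% of kept sites with such a match. In the weakest quintile 36.2% of sites with this CpG were lost (33.7 to 38.9) and 53.7% of those without it (51.7 to 55.7), and 37.3% and 25% were kept. The gap was present in the second quintile (10.6% against 25.2%) and in the third (0.955% against 4.4%). In both of the weakest quintiles the intervals of the groups did not overlap. The motif matrix itself favours C at position 15 (frequency 0.911) and G at position 16 (0.785), so matches with this CpG tend to score higher. Sites with and without it were not compared at like motif score.

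A motif match, at a score passed by 5% of sequences 1 kb away, was present at 69.6% of lost, 90.4% of kept and 82.5% of gained sites. At the stricter score passed by 1% of such sequences, the shares were 28.0%, 64.7% and 56.1%. Of the strict matches, 47.4% in the weakest quintile were lost, against 67.1% of sites without one. From the lowest to the highest quintile of motif score, the lost share among the weakest sites went from 68.5% to 34.6%. The best-scoring stretch of a site, whether or not it passed as a match, lay in sequence masked as a repeat at 36.5% of lost, 28.8% of kept and 65.6% of gained sites (58.9 to 71.6 for gained). In the weakest quintile 54.5% of sites with this stretch in a repeat were lost (53.1 to 55.9), against 65.4% of the others (64.2 to 66.6).

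A start site lay within 3 kb of 21% of lost sites (20.2 to 21.8), 23.2% of kept sites (22.8 to 23.6) and 23.6% of gained sites (18.4 to 29.7). Within 1 kb the shares were 8.91%, 11.9% and 14.6%. In the weakest quintile, 46% of sites within 1 kb of a start were lost (43.4 to 48.6) against 62.7% of the others (61.7 to 63.6), while 15.5% and 16.9% were kept. Introns held 42.6% of lost and 38.7% of kept sites, and 32.5% and 34.6% lay between genes. An H3K27ac peak of the 1 WT library covered 8.83% of lost and 11.4% of kept sites, and in the weakest quintile 51.0% of sites with such a peak were lost against 61.8% without, but fewer with it were also kept (12.2% against 17.4%). It covered 17.5% of sites shared with K20R replicate 2 alone and 6.27% of those shared with K20R replicate 1 alone. H3K27ac has 1 library per genotype and no replicate check.

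**Figure D3:**
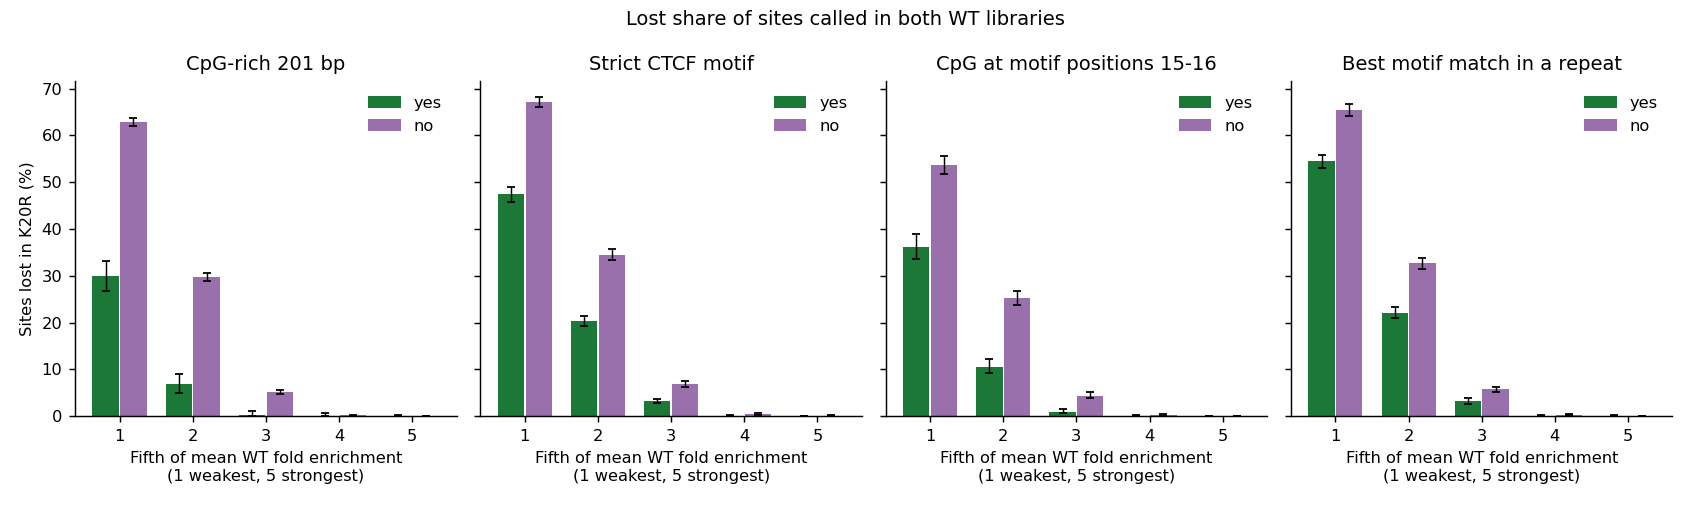
Share of sites called in both WT libraries that were lost in K20R, in percent with 95% Wilson intervals (y axis), by quintile of mean WT fold enrichment (x axis, 1 weakest), for sites with and without 4 features. In the weakest quintile, bars read 29.9% and 62.8% for CpG-rich sequence, 47.4% and 67.1% for a strict motif match, and 36.2% and 53.7% for the CpG within strict matches. They read 54.5% and 65.4% for a best-scoring stretch in a repeat, whether or not it passed as a match.

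The share of lost sites called in stem cells depended on the library. At day 0, 81.8% of lost sites were called in WT replicate 1, 37.9% in WT replicate 2, 30.4% in K20R replicate 1 and 29.4% in K20R replicate 2. WT replicate 1 of day 0 had the most complete list, with a peak at 89.1% of all 68863 sites against 70.8% to 71.3% in the other 3. Of kept sites, 96.9% to 99.8% were called in each of the 4 day 0 libraries. Of gained sites, 88.2% and 55.2% were called in the WT libraries of day 0 and 77.4% and 79.2% in the K20R libraries, so most had a WT peak before differentiation. The EB lists alone do not separate a site never bound by WT CTCF from one no longer called in WT EBs.

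The strongest gained site lay 0.237 kb from the start of Peg13, an imprinted, paternally expressed noncoding RNA in an intron of Trappc9, at chr15:72809844-72810508. Fold enrichment was 21.1 and 33.8 in K20R replicates 1 and 2, with 36 and 57 reads, and no WT peak was called. At day 0 the same site had 30.8 and 33.6 in K20R, 8.02 in WT replicate 2 and no peak in WT replicate 1, so WT was lower on both days. An H3K27ac peak covered it in K20R but not in WT. A second site 1.18 kb from the Peg13 start was called in K20R replicate 2 only, at 5.53. In the rest of Trappc9, a gene of vesicle transport, 4 sites were kept and 2 were lost, with 6.27 and 7.97 at the first and 10.3 and 10.2 at the second in the WT libraries.

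The other 9 strongest gained sites had 7.97 to 12 in K20R replicate 1 and 8.15 to 20.4 in K20R replicate 2. The second, in an intron of Gm26624 and 8.04 kb from the zinc finger gene Zfp988, had 11.4 and 20.4. Grin2a, an NMDA receptor subunit, had 9.14 and 14, and Cav1, the coat protein of caveolae, had 9.11 and 11.1. Others lay in Frmpd4 and Syt2 (a synaptic vesicle protein) and nearest to Ly6c2, Klf6, Gm5936 and Lyplal1. Of the 10 sites, 8 held a strict motif match and 9 had a peak in at least 1 WT library at day 0. At Zfp988 the day 0 values were 22.4 and 18.3 in WT and 27.9 and 21.5 in K20R, and at Grin2a they were 14.4, 10.3, 11 and 11.6. The site nearest to Lyplal1 had no WT peak on either day (6.97 and 6.38 in K20R at day 0). All 10 were still gained under each alternative, none of which adds a peak to a list.

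At the 38422 kept sites every library had a value, and log2 fold enrichment was compared between genotypes with limma, with Benjamini-Hochberg adjustment over all kept sites. Fold enrichment was lower in K20R at 650 sites (1.69% of kept sites at adjusted p under 0.05) and higher at 446 (1.16%). The median difference over all kept sites was 0.13 on the log2 scale, but -0.17 without K20R replicate 2 and 0.46 without K20R replicate 1. The genotype difference depended on strength, with a median of -0.254 in the weakest quintile of mean fold enrichment, where 257 sites were lower and 36 higher, and 0.57 in the strongest, where 0 were lower and 150 higher. Scaling moved these counts. Centring each library on its median gave 5069 lower and 6904 higher sites, so that 42.3% of calls were lower in place of 59.3%, and quantile normalisation gave 4577 and 4516 (50.3%).

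Fold enrichment divides the reads at the summit by a local background, and this background was largely shared by the libraries of a genotype. Its log2 values correlated across kept sites at r = 0.928 between the WT libraries and at r = 0.911 between the K20R libraries, but at about 0.09 (0.0906 to 0.091) between genotypes. These are correlations across sites of the same libraries, given as a description. Backgrounds lay within 1% of each other at 79.1% of kept sites between the WT libraries and at 28.6% between the K20R libraries. Between genotypes this share was 0.26% to 22.1%. The labels list 1 input library per genotype and day, but not which input each list was set against. If an input was shared, 2 fold enrichments of a genotype are not independent in their denominator. The p-values on fold enrichment would then be too small to that extent, which was not tested. The same test on log2 reads at the summit gave 567 lower and 19 higher sites. Of the 650 sites with lower fold enrichment, 649 were also lower in reads, with a median log2 difference of -1.34, and 325 passed the test. Of the 446 with higher fold enrichment, 445 were also higher in reads, with a median of 0.719, but 10 passed the test. At those 446 sites the median background was 2.44 and 2.43 reads in WT and 0.757 and 0.717 in K20R, against 0.944 to 0.974 in each library over all kept sites. Leaving out any 1 of the 4 libraries left 0 lower and 0 higher sites by limma on fold enrichment. Sites at an unadjusted p under 0.05 then numbered 730 to 9740 lower and 107 to 15412 higher, against 3406 and 3521 with all libraries.

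**Figure D4:**
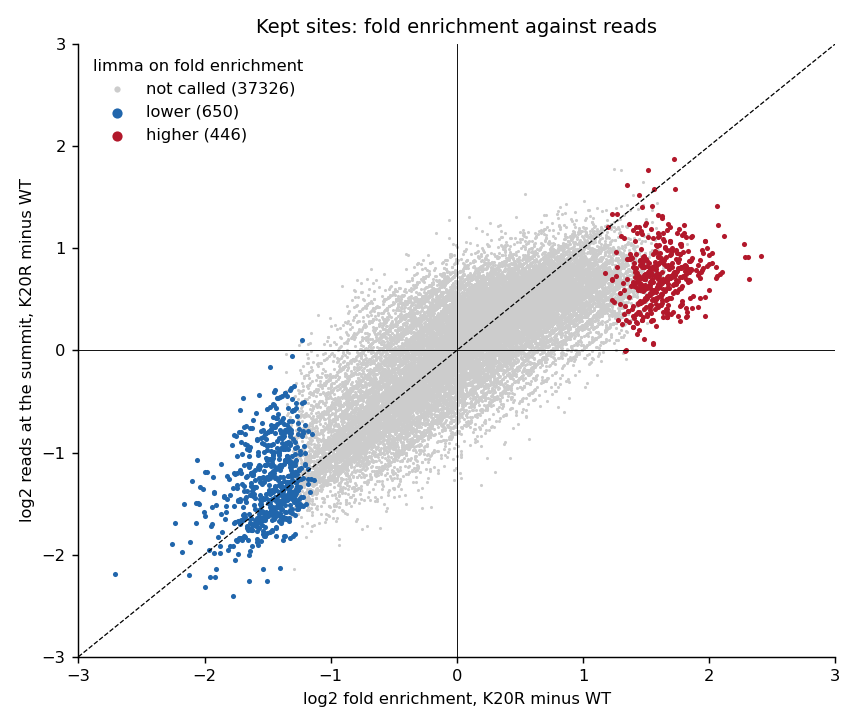
Difference in log2 reads at the summit (y axis) against the difference in log2 fold enrichment (x axis), K20R minus WT, at 38422 kept sites. Blue points are the 650 sites called lower and red points the 446 called higher on fold enrichment, and the dashed line marks equality. Lower sites had a median of -1.34 in reads, and higher sites a median of 0.719.

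The site with the lowest ratio lay between genes at chr15:8849393-8849752, 64.9 kb from Gm5043 and 119.0 kb from Ranbp3l. Fold enrichment was 30.5 and 40.6 in WT and 4.42 and 6.54 in K20R, a log2 difference of -2.71 ± 0.42 (SE, limma adjusted p = 3.8e-06). Reads there were 53 and 71 against 12 and 15 (log2 difference -2.19 ± 0.41, adjusted p = 0.000388). The next 2 lay near Gm14548 (23.6 and 21.9 against 3.67 and 6.14) and near Fam229a (27.6 and 25.5 against 5.44 and 5.81). No K20R value reached the lower WT value at any of these sites, which follows from their choice by largest difference.

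The remaining 7 of the 10 lowest had log2 differences from -2.18 to -2.07. They lay in introns of Myt1l near Pxdn (an enzyme that crosslinks basement membrane collagen), of Plekhg1 and of Apc (the scaffold that holds beta-catenin in check), in Lingo4, and between genes nearest to Irf1 (a transcription factor of interferon responses), Mc2r and Ift57 (a protein of cilia). On reads the test called 9 of the 10, and Apc had an adjusted p of 0.0795. At Apc the day 0 values were 16.7 and 8.06 in WT and 27.9 and 15.1 in K20R, opposite in direction to day 4. Day 0 values also overlapped between genotypes near Ift57 (13.8 and 7.24 in WT, 11.7 and 14.9 in K20R) and in Plekhg1 (10.8 and 5.23, 9.17 and 7.14). Near Mc2r (23.1 and 17.2, 9.88 and 9.28) and Irf1 (17.0 and 13.1, 8.15 and 9.68) they were lower in K20R at day 0 too.

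The site with the highest ratio lay 6.9 kb from Actrt2 at chr4:154674240-154675146, with 11.6 and 10.4 in WT and 42.1 and 81.5 in K20R. The log2 difference was 2.41 ± 0.45 (SE, limma adjusted p = 0.000411) in fold enrichment but 0.93 ± 0.46 (adjusted p = 0.398) in reads, which were 56 and 50 in WT and 73 and 139 in K20R. The recovered background was 3.9 reads in WT replicate 1 and 0.757 in K20R replicate 1. The other 9 of the 10 highest lay near Gm45856, in Zfhx3, Myo3b, Rapgef4 (an exchange factor activated by cyclic AMP), near Cilp2, at the starts of Vdac1 (the channel of the outer mitochondrial membrane) and Nyap1, in Pmfbp1 near Dhx38, and near Arap3. None of the 10 passed the test on reads, with adjusted p from 0.223 to 0.6. Those in Zfhx3 and Pmfbp1 lay in the chromosome 8 segment described below.

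Day 0 gave values that the day 4 test had not used. Among sites called in all 4 day 0 lists, the K20R minus WT difference had a median of -0.375 at the 521 sites lower at day 4, where 75.6% were below 0, and of 0.428 over 36554 kept sites, where 24.2% were below 0. At 443 sites higher at day 4 the median was 0.786. Sites lower at day 4 held a strict motif match in 41.4% (37.7 to 45.2), CpG-rich sequence in 1.38%, an H3K27ac peak of WT in 10.8% and one of K20R in 10.3%. For the sites higher at day 4 these shares were 76.2% (72.1 to 79.9), 11%, 11.4% and 20.0%, and for all kept sites they were 64.7%, 7.17%, 11.4% and 14.9%. Both days used libraries of the same genotypes, and no test was made of the day 0 values.

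Gene neighbourhoods were described by whether a lost, gained or kept site lay in the gene body or within 10 kb. Of 21911 protein-coding genes, 6897 had a lost site (31.5%), 176 a gained site (0.803%) and 14417 a kept site. A lost but no kept site was present at 1242 genes, and 535 had 3 or more lost sites. The shares below are to be read against these values, and they depend on list length. With lists of equal length, 8.34% of all genes had a lost site.

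Among the gene lists, that of the CTCF, cohesin and acetylation machinery had the highest share of genes with a lost site, 17 of 22 (77.3%). They had 74 sites called in both WT libraries, of which 30 were lost (40.5%, 30.1 to 51.9), against 18.8% of all such sites. These were weak sites, with a median WT fold enrichment of 8.45 against 13.9 over all genes. In the weakest 2 quintiles 30 of their 42 sites were lost (71.4%, 56.4 to 82.8), against 44.5% of all sites there. With lists of equal length 1 of the 22 genes had a lost site (4.55%), beside 8.34% of all genes, and with 50 kb on each side 21 had one (95.5%, against 56.8%). The list was above all genes at the deposited lengths. At equal length, 1 gene is too few to place it above or below them.

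Crebbp, which encodes the acetyltransferase CBP, had 3 lost sites and no kept site. Their fold enrichments in WT replicates 1 and 2 were 5.13 and 5.12 at 88.7 kb and 6.27 and 5.12 at 114.0 kb from its start, both in introns, and 7.5 and 6.55 beyond its end, in an intron of Trap1. The site at its start had 6.84 and 6.26 in WT and 8.15 in K20R replicate 2, and no peak in K20R replicate 1. The related acetyltransferase gene Ep300 had 4 lost sites, with 3.66 to 6.84 in WT replicate 1 and 5.12 to 6.59 in WT replicate 2. It also had a kept site 21.5 kb into the gene, with 22.8 and 20.3 in WT and 11.8 and 22.9 in K20R. Hdac6, which encodes a deacetylase, had 1 kept and no lost site.

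Of the cohesin ring genes, Smc3, Stag1 and Stag2 each had 2 lost sites, and Smc1a and Rad21 had no site of both WT libraries. Lost sites at the loading genes were 1 in Nipbl (5.7 and 6.26) and 1 near Mau2 (6.27 and 7.97). Pds5a, which regulates the release of cohesin together with Wapl, had 3 lost sites and 2 kept sites at its start. The kept sites had 26 and 21.3, and 17.7 and 13.5, in WT, and 13.9 and 42.8, and 9.65 and 30.6, in K20R, so that the WT values lay between those of the K20R libraries at both sites. Wapl had 1 lost site (6.08 and 6.59). Zfp143 and Yy1, which bind DNA near CTCF, had 2 lost sites each. Ctcf had 1 lost site in an intron (3.66 and 5.07) and 3 kept sites, in the chromosome 8 segment. Its testis paralogue Ctcfl had a lost site (6.27 and 6.26) and a gained site 0.099 kb from its start (5.05 and 8.61), which at day 0 was called in all 4 libraries.

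Lineage genes lay on both sides of the background of 31.5%, with 8 of 20 pluripotency regulators, 7 of 26 primitive streak and mesoderm regulators, 13 of 28 cardiac genes, 2 of 12 endoderm and 7 of 19 neural regulators, and 10 of 24 genes of Nodal, Wnt, Fgf and Bmp signals having a lost site. No gene of these lists had a gained site. Lost shares of their sites were 21.6% (12.5 to 34.6), 18.0% (9.77 to 30.8), 24.1% (16 to 34.5), 15.8%, 21.9% and 14.3% in the same order, and all intervals held the 18.8% of all sites.

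Nanog, a core factor of pluripotency, had 3 lost sites inside the gene, with 4.56 to 4.86 in WT replicate 1 and 4.86 to 5.27 in WT replicate 2. Flanking them were kept sites with 15.7, 11.7, 12.4 and 17.8 and with 31.2, 36.4, 42.0 and 55.6 in WT replicates 1 and 2 and K20R replicates 1 and 2. Pou5f1 had a lost site 8.34 kb before its start (6.46 and 6.97) and Dppa3 had 2 (7.98 and 10.8, 5.7 and 5.05). Esrrb, Tbx3, Utf1, Fgf4 and Tdgf1 had 1 each.

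In the mesoderm list Tbx6, a T-box factor of paraxial mesoderm, had 3 lost sites around a kept site 1.32 kb before its start (57.5 and 55.2 in WT, 44.4 and 89.5 in K20R). The strongest of the lost ones lay in an exon of Ppp4c with 14.1 and 9.83. T (Brachyury), the defining factor of the primitive streak, had a lost site without a motif match 9.72 kb after its start (10.6 and 9.02) and none kept. A second site, 14.1 kb after its start (8.14 and 9.84 in WT), had a peak in K20R replicate 2 (7.57) but not in K20R replicate 1. The only site near Twist1, a factor of mesenchyme, was lost (12 and 14.8), as was that near Meox1 (4.56 and 4.55). Hand1 had 1 lost site (5.53 and 5.09) between kept sites with up to 47.2 in WT and 88.5 in K20R, and Tal1 and Tbx1 had 1 each. The kept sites near Eomes (4), Mesp1 (3) and Snai1 (3) stood without a lost one. A kept site is only a call in all 4 libraries and can differ in strength. At Eomes the study reports decreased CTCF binding, enhancer-promoter contact and expression in K20R.

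Cardiac genes with lost sites included Gata4 (2, with 7.41 and 4.55, and 5.07 and 8.84), Myh6 (10.1 and 9.63) and Myh7 (2, and none kept), which lie in the chromosome 14 segment. Elsewhere, Ryr2, the calcium release channel of the sarcoplasmic reticulum, had 3 lost of 12 sites, and Actn2 had 2 of 5. Smyd1 had 2, and Myl2, Myl3, Myocd, Tnni1, Tnnc1, Gata5 and Srf had 1 each. Nkx2-5 and Actc1 had no site of both WT libraries, and the 1 such site of Isl1, of Hand2 and of Tbx20 was kept. Among signal genes, the only sites near Wnt3 (5.53 and 5.53) and Fgf5 (4.56 and 5.69) were lost. Bmp4, in the chromosome 14 segment, had 1 lost site (5.13 and 5.69) of 2 called in both WT libraries, and none kept. Nodal, Lefty1, Lefty2, Wnt3a and Fgf8 had kept sites and no lost one. Endoderm genes with lost sites were Afp and Foxa3, and neural ones were Gbx2, En1, Pax6, Nes, Pou3f1, Pou3f2 and Olig2.

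Hox genes had a lost site at 5 of 39 (12.8%), clustered protocadherins at 19 of 57 (33.3%) and imprinted genes at 7 of 38 (18.4%). Neighbouring genes of a cluster share sites. Hox genes had 3 lost of 31 sites (9.68%, 3.35 to 24.9), at Hoxa11 and Hoxa13, which share 1, at Hoxc13, and at Hoxc5 and Hoxc6, which share 1. Clustered protocadherins had 3 lost of 78 sites (3.85%, 1.32 to 10.7). Imprinted genes had 8 lost of 82 (9.76%, 5.03 to 18.1), near Nnat and Blcap, Gnas, Ddc, Grb10, Dlk1 and Trappc9. In the weakest 2 quintiles the lost shares of these lists were 42.9% (15.8 to 75) for Hox genes, 27.3% (9.75 to 56.6) for protocadherins and 24.2% (12.8 to 41.0) for imprinted genes, against 44.5% of all sites there. The first 2 of these intervals hold the value of all sites. Of alpha globin sites 2 near Hba-a1 and Hba-a2 were lost, of 5 over both globin loci. Housekeeping genes had a lost site at 5 of 12 (5 of 35 sites, 14.3%), and Hprt had a gained one (4.55 and 4.08). Fibroblast marker genes had one at 5 of 8, at Col1a1, Col1a2, Lum, Postn and Thy1.

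**Figure D5:**
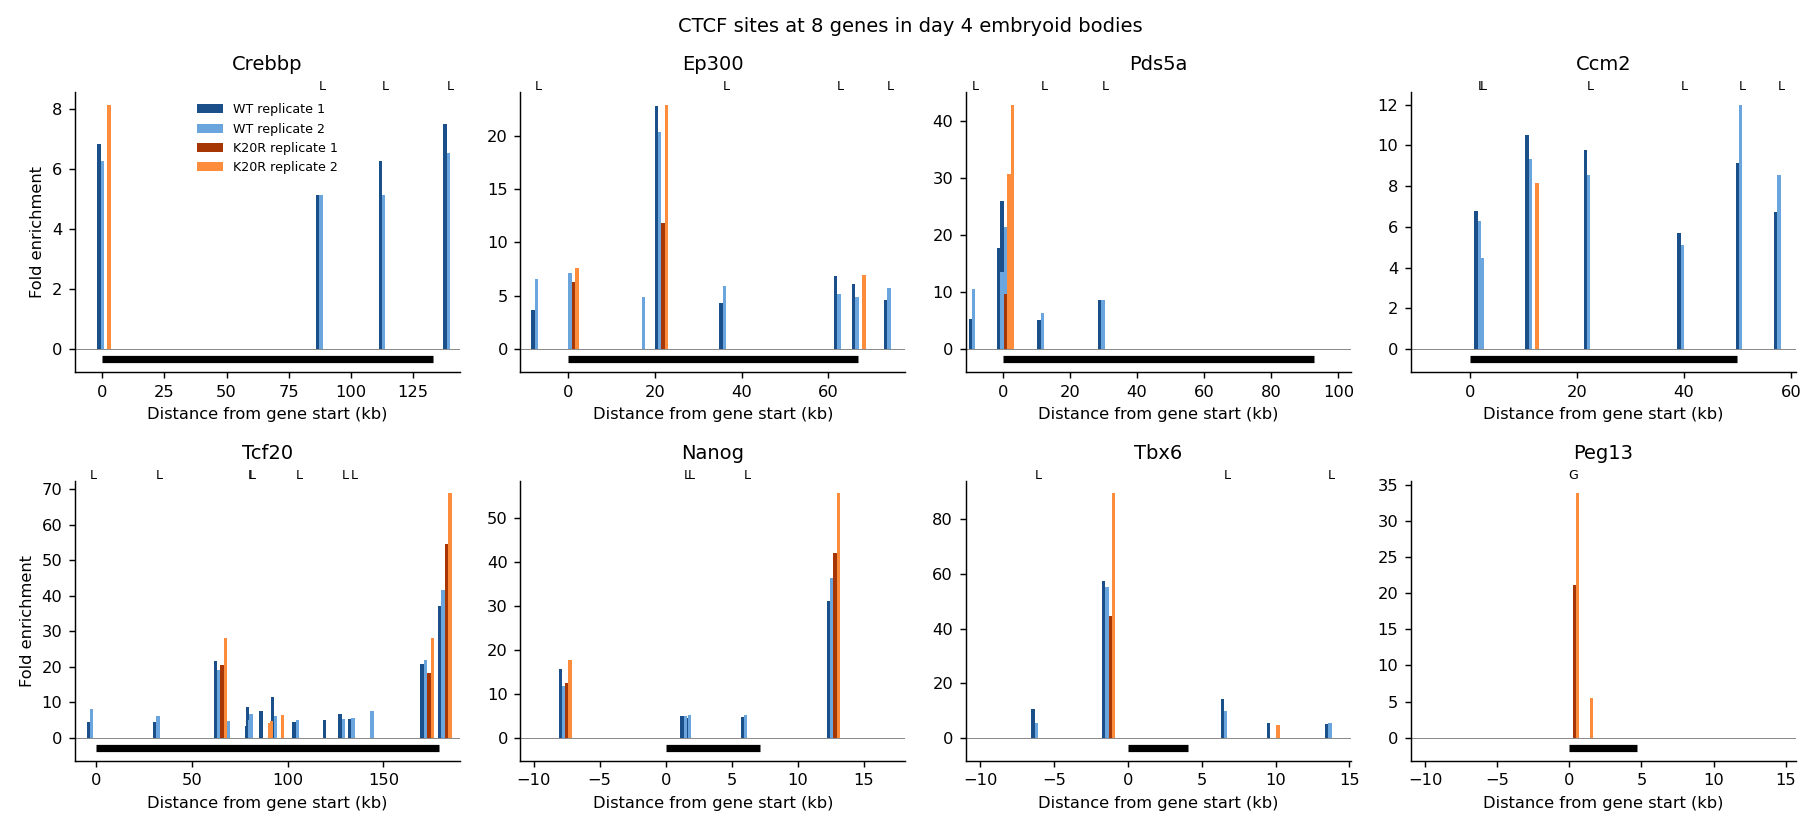
CTCF sites at 8 genes, with fold enrichment in each library (y axis) against the distance from the gene start in kb (x axis), the 4 libraries of a site drawn side by side. Black bars are gene bodies, and letters above mark lost (L) and gained (G) sites. Lost sites at Crebbp, Ep300 and Nanog stayed below 8. Kept sites reached 55.6 at Nanog and 22.9 at Ep300, Crebbp had none, and Peg13 had a site of 21.1 and 33.8 in K20R without a WT peak.

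Lost sites were spread over the genome. Of 1780 windows of 1 Mb with at least 10 sites of both WT libraries, 40 had no lost site, and the lost share had a median of 18.2% and a 5th to 95th percentile range of 5.88% to 35.7%. The highest shares were 6 of 10 sites in windows with Gjd2, Actc1 and Dph6 on chromosome 2, with Clec4a4, Clec4b2 and Clec4d on chromosome 6, and with Zic1 and Zic4 on chromosome 9. Next came 6 of 11 at Cntn1 and Pdzrn4 on chromosome 15 and 7 of 13 at Adamts9 and Magi1 on chromosome 6. Median WT fold enrichments in these 5 windows were 8.1 to 9.88. By gene, the most lost sites were in Gm20388 (50 of 266, 18.8%) and Fgfr2 (30 of 120, 25%), whose models span 4434.9 and 2960.9 kb. Ccm2, a scaffold of endothelial junctions, had 6 of 7 lost and none kept, Tcf20 had 7 of 11, and Rabgap1l had 7 of 18. Cdh13 had 9 of 38, and Anks1b, Ctnna3, Gse1 and Camta1 had 7 each, of 22, 25, 34 and 57.

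Runs of neighbouring WT sites that were all lost were mostly short: 6584 runs held 1 site, 1318 held 2, 296 held 3, 50 held 4 and 11 held 5. The 2 longest held 7 sites. One lay in 13.3 kb of chromosome Y at Mid1-ps1, where all 7 sites held a strict motif match, and the other spanned 1355.6 kb around Immp2l on chromosome 12. Runs of 6 lay at Zcchc10 and Aff4 (79.5 kb of chromosome 11), at Smim14, Ube2k and Pds5a (149.0 kb of chromosome 5), along the Clec4 lectin genes (297.0 kb of chromosome 6), at Atg10 and Ssbp2 on chromosome 13, and in 2 regions without a protein-coding gene, on chromosomes 11 and 1. The most compact run of 5 lay on chromosome 7 at Exoc3l2 (17.5 kb), where WT fold enrichments had a median of 5.69. Median WT fold enrichment in the runs named here was 5.58 to 8.26. Peaks in near-identical repeats can share reads, so neighbouring sites in such arrays may not be separate.

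A pair of segments had been marked from earlier results of these data, so their values are a description. In that of chromosome 14 from 40 to 70 Mb, 232 of 793 sites were lost (29.3%, 26.2 to 32.5), and in that of chromosome 8 from 80 to 110 Mb, 103 of 771 (13.4%, 11.1 to 15.9), against 18.8% elsewhere. In the weakest quintile the shares were 85.5%, 46.1% and 60.4%. At kept sites of the chromosome 14 segment, the median log2 difference in reads was -0.553, and the background was 0.974 and 0.973 reads in WT and 0.757 and 0.717 in K20R. In the chromosome 8 segment the difference in reads was 0.663, with a background of 1.21 and 1.13 in K20R. Reads and background differed in the same direction within each segment. Without these segments 10078 sites were lost and 203 gained, and 622 kept sites were lower and 423 higher. Other chromosomes lost 16.4% to 20.4% of their sites, and chromosome Y 8 of 15.

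H3K27ac peaks at start sites served as a check of the cell types present. The genotype of the K20R list was taken from its sample title, since its peaks carry the name M1 in place of a genotype. Of 6 markers of pluripotent cells, 4 had a peak in WT (Pou5f1, Sox2, Nanog and Zfp42) and the same 4 with Klf4 in K20R. Of 5 primitive streak and mesoderm markers, T, Eomes and Tbx6 had a peak in WT and Tbx6 in K20R. Of 4 neural markers Nes had a peak in both, and of 3 endoderm markers none had one. Of 6 fibroblast markers, Thy1 and Lum had a peak in WT and Thy1 in K20R, while Col1a1, Col1a2, Col3a1 and Postn had none. Peaks at T and Eomes differed between the 2 libraries, 1 per genotype, and the part of cell composition in the CTCF differences was not tested. In bulk samples, fewer cells with a bound site and less binding per cell cannot be told apart.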

How the data were processed

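CTCF ChIP-seq was done in day 4 embryoid bodies of WT and K20R cells, with 2 libraries per genotype, which the methods call biological replicates. The authors trimmed reads with Trim Galore, aligned them to mm10 with Bowtie2, removed low-quality, duplicate and blacklisted reads, subsampled the CTCF libraries to equal size and ran MACS2 on each. The deposited lists give fold enrichment over local background as a ratio, and −log10 p and −log10 q values, all made by the authors, and a whole-number score that MACS2 derives from q, which was deposited with them and not used. The lists hold no read counts, so a count test could not be run. Inputs were not analysed here.

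Peaks overlapping by at least 1 bp were merged into sites. Reads at the summit and background were solved from fold enrichment and −log10 p under a Poisson model, with a tolerance of 0.01 in −log10 p. Kept sites were tested with limma 3.58.1 (R 4.3.3) on log2 fold enrichment, with genotype as the only term, Benjamini-Hochberg adjustment and a threshold of 0.05. All p-values rest on 2 libraries per genotype. The site classes, the recovery of reads and the limma fit were tested on simulated data. Replicate numbers did not pair the samples (r = 0.0344 between deviations of same-numbered libraries over 38422 kept sites).

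The CTCF matrix (19 bp) came from the 2 WT lists of day 0, 1000 peaks of lowest p-value in each. The best match within 100 bp of the summit was kept at 7.26 bits or more (passed by 5% of sequences 1000 bp away), or at 13.39 bits for a strict match (1%). Genes came from GENCODE and the genome from RefSeq GRCm38. Scripts ran in Python 3.11.15 with pysam 0.24.0, scipy 1.17.1, numpy 2.4.6, matplotlib 3.10.9 and pandas 2.3.3. Named sites were the 15 lost, 15 lost promoter and 10 gained sites with the highest fold enrichment in the weaker library, and the 10 kept sites with the largest difference in each direction past the threshold. Members and lists were chosen with earlier results of these data known. Alternatives changed the q threshold, list length, overlap, scaling, motif settings, gene distance and libraries used. The day 0 CTCF and day 4 H3K27ac lists served as further readouts. The nearest gene of 1 lost site and 1 run of lost sites are not reported here.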

Additional observations from a re-analysis of the deposited data

How the results depend on the processing

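With each list limited to its 41360 peaks of lowest p-value, lost sites went from 10413 to 2157, gained sites from 212 to 1840, the promoter share of lost sites from 21% to 20.0%, the motif shares of lost and kept sites to 76.9% and 91.2%, the lost share of the weakest and strongest quintiles to 21.4% and 0%, genes with a lost site over all lists from 108 to 17, and those of the CTCF, cohesin and acetylation list from 17 to 1. This setting lengthens no list and shortens the WT lists most. At −log10 q of at least 5 the peak number difference was -13672.5. Kept sites numbered 5069 lower and 6904 higher after median centring, 4577 and 4516 after quantile normalisation and 567 and 19 in reads. With a replicate block they numbered 302 and 83, although the numbers did not pair the samples, and the peak number difference stayed at -16850.5. At 1 kb the promoter shares were 8.91% of lost and 11.9% of kept sites, the 1% motif threshold gave 28.0% and 64.7%, and matches within 50 bp 55.0% and 85.8%. With reads as strength, the weakest and strongest quintiles lost 63.1% and 0%. With 50 kb on each side, 177 listed genes had a lost site. Leaving out 1 library gave 11612 to 15688 lost sites, the most without K20R replicate 2, and 465 to 1972 gained sites, the most without K20R replicate 1. Each of the 4 omissions more than doubled the gained sites, to 465 and 476 without WT replicates 1 and 2 and to 589 without K20R replicate 2. Leaving out a library removes a condition of the lost and gained classes, so a rise in both was largely set by the rule. It gave a peak number difference of -19902 to -13799, 0 lower and 0 higher kept sites (limma, adjusted), promoter shares of 20.4% to 25.2% of lost and 23% to 24.4% of kept sites, motif shares of 66.2% to 70.3% and 88.1% to 90.3%, lost shares of 65.4% to 78.4% and 0.00904% to 0.0657% in the weakest and strongest quintiles, and 17 to 18 genes of the CTCF, cohesin and acetylation list. The segment alternatives and the list length, flank and library alternatives of that gene list were chosen after seeing the data. No named site changed sign, but 3 comparisons changed direction. Of calls at kept sites, 59.3% were lower and 42.3% after median centring, the median difference of kept sites went from 0.13 to -0.17 without K20R replicate 2, and the share of the CTCF, cohesin and acetylation list with a lost site went from above that of all genes (77.3% against 31.5%) to a lower value at equal length (4.55% against 8.34%). The last of these rests on 1 of 22 genes at equal length, too few to place the list below all genes. Of the 20 named kept sites, none was called when a library was left out, 11 were not called in reads and the site near Dhx38 (2.07) was not called with the block. The cause of these changes was not tested. With 2 libraries per genotype and no reads in the lists, a weak site without a peak may still be bound.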
